A study of Arabidopsis thaliana with 14 samples.

Results

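ZIF1, ZIFL1 and ZIFL2 are the Arabidopsis genes of the zinc-induced facilitator family, 3 of the 33602 genes counted in each library. They were taken by gene identifier, and all 3 passed the filter on low counts. The family was chosen by measured counts of these libraries, with ZIFL1 already known to be lower in line N2102363 than in wild type after the same spray. Which contrasts entered the choice is not given in the sources used here. Those of the lines with sprayed wild type were treated as used and are given as a description. Calls of members in them are printed but are no test of the members.

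The series holds 14 RNA-seq libraries of whole rosettes from plants 3 weeks old, each library a pool of 5 rosettes harvested 3 h after spraying. Line N2102362 (n = 4) and line N2102363 (n = 4), which overexpress the transcription factor WRKY75 on induction and are described as independent, were sprayed with 50 µM estradiol. Wild-type Col-0 (n = 3) received the same spray, and a further Col-0 group (n = 3) received water. All sprays held 0.001% Silwet-L77, a wetting agent. Each line is a single line, and none of the 14 libraries came from plants of the lines without estradiol. An effect of the insertion itself and an effect of induction therefore cannot be told apart. The promoter of the construct is not given in the sources used here.

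Total counts ran from 20456036 to 22605970 per library. WRKY75 stood at 28.2 to 82.1 CPM (counts relative to the library total after TMM scaling) in N2102362 and 76.8 to 167 CPM in N2102363. In Col-0 with estradiol it stood at 0.627 to 2.69 CPM, below every library of the lines. The ranges of the lines overlapped, so WRKY75 set them apart from Col-0 but not from each other in every library. The leaf markers RBCS1A, LHCB1.3, CA1 and RCA summed to 14313 to 37097 CPM over all libraries. Of 5 root markers, the root hair genes RHD6 and EXPA7 had 0 counts in every library. All 5 together, PYK10 among them, summed to 20.4 to 67.1 CPM. Col-0 had no replicate 4, and the files of replicate 4 of the lines were the ones with a date in their names. The description of the design gives 4 biological replicates for the lines and the extraction protocol names 3, so what replicate 4 was is not resolved here.

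Transporters of this family belong to the major facilitator superfamily and move small solutes across membranes in exchange for protons. ZIF1 sits in the vacuolar membrane and promotes storage of nicotianamine, a chelator of zinc and iron, inside the vacuole, and mutants without it are sensitive to zinc. ZIFL1 is known from roots, where one splice form at the vacuolar membrane affects polar auxin transport, and from guard cells, where a shorter form at the plasma membrane affects drought tolerance. ZIFL2 is linked to potassium and caesium balance in roots. WRKY75 is a transcription factor described in phosphate starvation, leaf senescence and defence.

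ZIF1 (AT5G13740) and ZIFL1 (AT5G13750) lie in tandem on the plus strand of chromosome 5, and ZIFL2 (AT3G43790) lies on the plus strand of chromosome 3. In the coordinates of the count files (TAIR10), ZIF1 runs from 4432306 to 4436668, ZIFL1 from 4438200 to 4441579 and ZIFL2 from 15655384 to 15660086. All are protein-coding, with 2, 4 and 5 transcripts in RefSeq (TAIR10.1), and 0 other genes overlap any of them in either annotation. In RefSeq the end of ZIF1 and the start of ZIFL1 are 655 bases apart. The longest coding sequences have 1461, 1437 and 1455 bases.

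**Figure D1:**
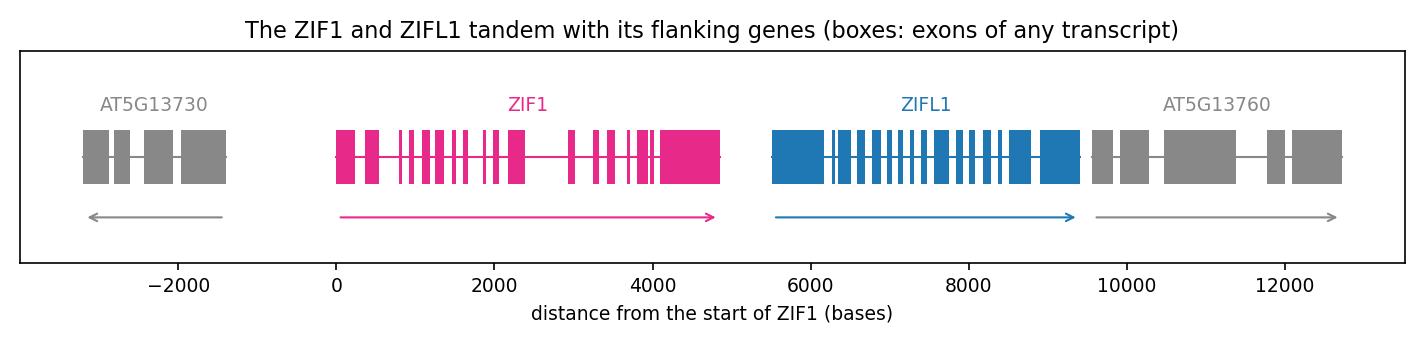
Gene models of ZIF1, ZIFL1 and the flanking genes AT5G13730 and AT5G13760 by distance in bases from the start of ZIF1, with arrows for the direction of transcription and boxes for exons of any RefSeq transcript. ZIF1 and ZIFL1 point the same way with 655 bases between them.

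How far the copies have diverged bears on whether reads could be shared between them. ZIF1 and ZIFL1 were identical at 69.8% of 1436 aligned coding bases, ZIF1 and ZIFL2 at 65.0% of 1428, and ZIFL1 and ZIFL2 at 63.6% of 1416. The longest run of identical coding bases was 17 for ZIF1 and ZIFL1, 17 for ZIF1 and ZIFL2, and 16 for ZIFL1 and ZIFL2. Outside the family, AT5G13940 matched ZIF1 at 72.4% over 359 bases and ZIFL1 at 73.9% over 111 bases. The most alike stretch of 90 coding bases that lies within 1 exon of each gene is shown, with capitals at the 31 positions where the genes differ.
ZIF1, exon 5, chr5:4433378-4433467, plus strand: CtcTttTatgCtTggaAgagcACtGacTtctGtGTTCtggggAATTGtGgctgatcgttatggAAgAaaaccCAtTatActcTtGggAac
ZIFL1, exon 4, chr5:4438889-4438978, plus strand: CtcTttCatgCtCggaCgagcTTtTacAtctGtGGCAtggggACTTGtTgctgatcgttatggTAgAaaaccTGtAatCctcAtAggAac
ZIFL2, exon 4, chr3:15655925-15656014, plus strand: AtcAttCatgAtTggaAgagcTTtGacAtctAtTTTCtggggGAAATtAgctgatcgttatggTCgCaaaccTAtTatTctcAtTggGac
Even here ZIF1 and ZIFL1 differ at 19 bases, ZIF1 and ZIFL2 at 22, and ZIFL1 and ZIFL2 at 24.

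WRKY proteins bind the W-box, searched as TTGACC and TTGACT on both strands. Beside it the G-box CACGTG and TGTCGACA, the core of the element through which bZIP19 and bZIP23 act under zinc deficiency, were searched. In the 250 bases before the RefSeq start, 0 of 3 genes held any of these, where 28.0% of 19559 tested genes held a W-box, 7.3% a G-box and 0.3% the zinc element core. The 250 bases before ZIFL1, the member with the lowest value relative to Col-0, are shown without capitals because they hold no match.
ZIFL1, chr5:4437554-4437803 (TAIR10.1), plus strand: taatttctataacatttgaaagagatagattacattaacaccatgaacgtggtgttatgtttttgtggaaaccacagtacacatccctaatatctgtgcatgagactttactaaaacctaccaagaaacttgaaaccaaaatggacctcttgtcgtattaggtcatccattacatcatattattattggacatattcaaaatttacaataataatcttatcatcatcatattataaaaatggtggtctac
Within 500 bases, ZIFL2 held 1 W-box, on the minus strand and ending 462 bases before the start, and ZIF1 held 1 G-box ending 265 bases before it, where 44.4% of tested genes held a W-box, 10.2% a G-box and 0.5% the zinc element core. Their surroundings are given with the match in capitals.
ZIFL2, W-box, chr3:15654840-15654869, plus strand: attacctaaatcAGTCAAaaacatctatat
ZIF1, G-box, chr5:4432015-4432044, plus strand: ttaaaatagacaCACGTGaagcaattggat
A match is a string of letters and no measured binding site. For ZIFL1 the RefSeq start is 4437804 and that of the count files 4438200. The bases between these starts were not searched.

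Per kilobase of exon, ZIF1 and ZIFL1 were expressed at similar levels in wild-type rosettes and ZIFL2 at a far lower one. In Col-0 with estradiol the level was 28.4 ± 9.07 CPM per kb for ZIF1, 20.9 ± 5.41 for ZIFL1 and 2.35 ± 0.143 for ZIFL2 (SD, n = 3), and in Col-0 with water it was 24.7 ± 3.73, 22.2 ± 3.09 and 2.76 ± 0.569 CPM per kb (n = 3). In N2102362 the levels were 23.0 ± 2.72 for ZIF1, 17.4 ± 5.52 for ZIFL1 and 1.96 ± 0.871 CPM per kb for ZIFL2 (n = 4). In N2102363 they were 16.4 ± 2.51 for ZIF1, 7.31 ± 1.37 for ZIFL1 and 1.64 ± 0.287 CPM per kb for ZIFL2 (n = 4). The order of the means was the same in the 4 groups, and the intervals of mean ± SD of ZIF1 and ZIFL1 overlapped in all groups but N2102363. Exon lengths were taken from RefSeq within the span that the files give, which is not the exact gene model the authors counted.

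ZIF1, the vacuolar nicotianamine transporter, had its lowest mean in N2102363, and the sprayed Col-0 libraries reached from inside that line's range to the highest value of the series. It stood at 49.7, 37.9, 44.3 and 48.6 CPM in replicates 1 to 4 of N2102362, and at 33.1, 37.3, 25.5 and 33.1 CPM in those of N2102363. Col-0 with estradiol had 68.0, 35.3 and 63.9 CPM, and Col-0 with water had 41.5, 56.1 and 47.8 CPM. Replicate 2 of Col-0 with estradiol was the low one of its group, below all of N2102362 and inside the range of N2102363, so both lines overlapped with Col-0. The means were ordered N2102363 (32.2 ± 4.94 CPM), N2102362 (45.1 ± 5.34), Col-0 with water (48.5 ± 7.33) and Col-0 with estradiol (55.7 ± 17.8), and among the groups above N2102363 the neighbours lay within their spread. Against Col-0 with estradiol the log2 fold change was -0.30 ± 0.20 (SE) in N2102362, -0.79 ± 0.20 in N2102363 and -0.55 ± 0.17 in the mean of the lines. Leaving out 1 library at a time gave -0.55 to -0.13 in N2102362, the ends being without replicate 2 and without replicate 1 of Col-0 with estradiol.

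ZIFL1, the member tied to auxin transport and guard cells, had the lowest levels relative to Col-0, and these were in N2102363. Its level was 37.3, 49.4, 36.4 and 21.4 CPM in replicates 1 to 4 of N2102362, and 17.5, 17.4, 14.3 and 11.6 CPM in those of N2102363. Col-0 with estradiol had 48.9, 51.1 and 30.6 CPM, and Col-0 with water had 46.0, 52.6 and 39.7 CPM. All 4 libraries of N2102363 lay below all 6 Col-0 libraries and below all 4 of N2102362, while N2102362 overlapped with Col-0 and its replicate 4 was the lowest of that line. The order of the means was N2102363 (15.2 ± 2.85 CPM), N2102362 (36.1 ± 11.5), Col-0 with estradiol (43.6 ± 11.3) and Col-0 with water (46.1 ± 6.42), and the groups above N2102363 did not differ beyond their spread. Against Col-0 with estradiol the log2 fold change was -1.52 ± 0.25 (SE) in N2102363 and -0.27 ± 0.25 in N2102362. With the replicate number as a block over all 14 libraries the value in N2102363 was -1.33 ± 0.12. Without replicate 4 of both lines the values were -1.41 in N2102363 and -0.09 in N2102362. In bulk rosettes, fewer cells that express a gene and less RNA per cell cannot be told apart.

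ZIFL2, the potassium-linked member, had few counts, 44 to 152 per library. It stood at 3.60, 6.86, 4.87 and 2.26 CPM in replicates 1 to 4 of N2102362, and at 3.30, 4.44, 3.96 and 3.01 CPM in those of N2102363. Col-0 with estradiol had 5.33, 5.56 and 4.92 CPM, and Col-0 with water had 6.95, 6.94 and 4.73 CPM. The 4 libraries of N2102363 lay below all Col-0 libraries, the gap to the lowest of them being small, and N2102362 spanned the whole range, from the lowest of the 4 groups in replicate 4 to nearly the highest in replicate 2. The means ran from N2102363 (3.68 ± 0.644 CPM) over N2102362 (4.40 ± 1.96) and Col-0 with estradiol (5.27 ± 0.320) to Col-0 with water (6.21 ± 1.28), and each neighbouring pair lay within its spread. Against Col-0 with estradiol the log2 fold change was -0.26 ± 0.29 (SE) in N2102362 and -0.52 ± 0.29 in N2102363. The value in N2102362 came mostly from replicate 4, without which it was -0.04, and without replicate 2 it was -0.56.

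**Figure D2:**
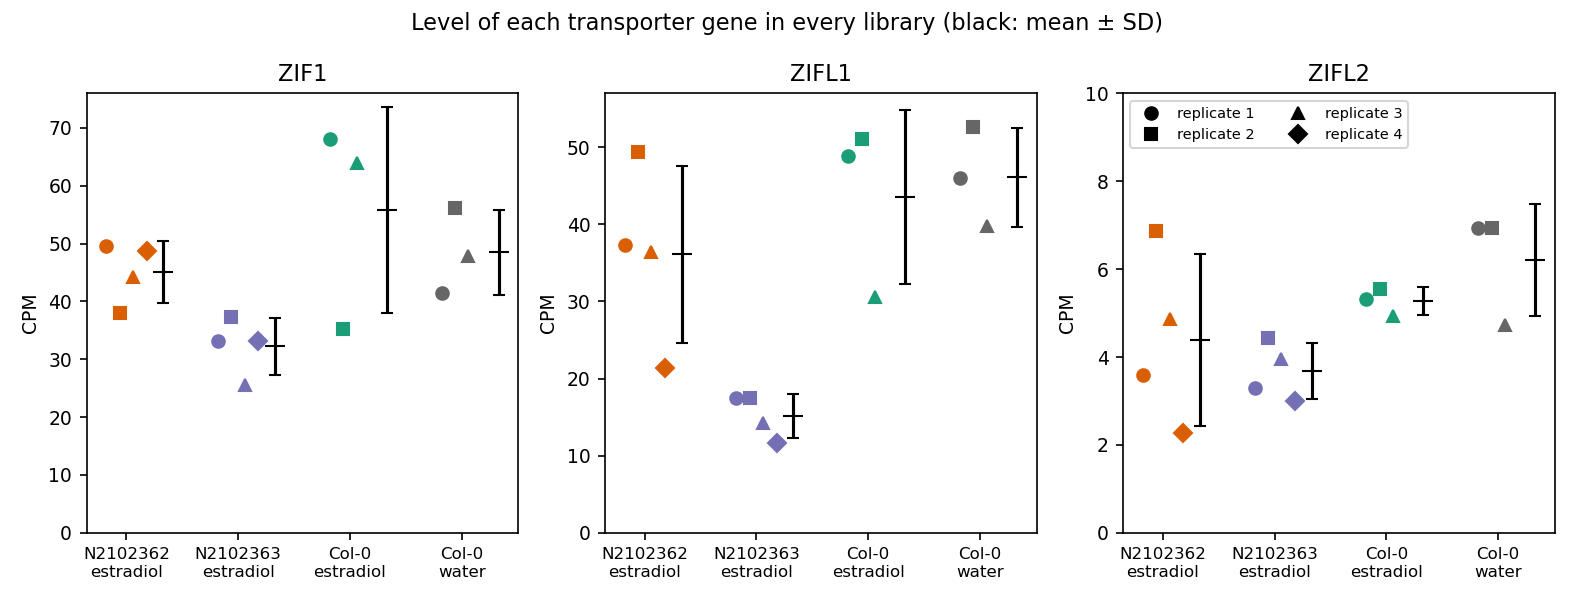
CPM of ZIF1, ZIFL1 and ZIFL2 in every library by group, with 1 symbol per replicate number and the mean ± SD in black. ZIFL1 stands at 11.6 to 17.5 CPM in N2102363, below every other library.

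In the contrasts through which the genes were chosen, nothing is read from counts of members. edgeR called 0 of 3 members in N2102362, where 0.0305% of 19666 genes were called, 0 of 3 in N2102363 (0.0254%), and 0 of 3 in the average of the lines (0.0356%, or 0.0203% called lower). With no adjustment, p was under 0.05 for 914 genes in N2102362, 2205 in N2102363 and 1834 in the average, and DESeq2 called 9, 37 and 27. In N2102363, edgeR with the replicate block called ZIFL1 (1 of 3 members, 0.0356% of genes). DESeq2 called it there too (1 of 3, 0.18%). It was also called in N2102363 with Col-0 of both sprays (55 of 19666 genes called) or Col-0 water (27 of 19666) as the reference. The same held without replicate 4 of both lines (7 of 19590) and without replicate 3 of Col-0 with estradiol (8 of 19828). RLE scaling, no filter, the compared groups alone or any other single library left out gave no call. In the average of the lines only both sprays as the reference gave one (127 of 19666). ZIFL1 was already known to be lower in N2102363 than in sprayed Col-0, so these calls are no test of it. For 2 of 3 members, ZIFL1 and ZIFL2, all libraries of N2102363 lay below those of Col-0 with estradiol, which held for 5.4% of genes. In N2102362 this held for 0 of 3, against 2.39% of genes, and in both lines at once for 0 of 3, against 1.13%. Set against Col-0 of both sprays, 2 of 3 members, again ZIFL1 and ZIFL2, lay lower in all libraries of N2102363 (3.61% of genes) and 0 of 3 in N2102362 (1.04%). Both contrasts share the 3 Col-0 estradiol libraries.

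Summed levels of cell type markers are given beside these values. In N2102363 the guard cell markers FAMA, KAT1, SLAC1, MYB60 and OST1 summed to 76.8 to 82.4 CPM, against 69.4 to 87.2 CPM in Col-0 with estradiol. The leaf markers summed to 20785 to 32477 CPM in N2102363, against 14313 to 24795 CPM. Root markers summed to 35.2 to 67.1 CPM, against 20.4 to 37.9 CPM, nearly all of it PYK10, and floral markers to 2.04 to 4.11 CPM, against 0.762 to 1.72 CPM. In the mean of the lines 4 of 4 leaf, 4 of 5 guard cell, 1 of 1 tested root and 2 of 2 tested floral markers had positive fold changes, and edgeR called 0 of them. Their part in the levels of the transporters was not tested.

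The genes beside the tandem were looked at for their position. AT5G13730, upstream and on the other strand, averaged 49.4 ± 4.94 CPM in N2102363 (SD, n = 4), against 49.6 ± 11.6 CPM in Col-0 with estradiol (n = 3). AT5G13760, downstream, averaged 44.8 ± 5.98 CPM in N2102363, against 47.5 ± 9.39 CPM. Their log2 fold changes in N2102363 were -0.01 ± 0.17 (SE) and -0.08 ± 0.16, both smaller than their error, beside -0.79 for ZIF1 and -1.52 for ZIFL1.

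The estradiol spray itself was measured in Col-0, without the transgene. For ZIF1 the log2 fold change of estradiol over water was 0.20 ± 0.22 (SE), for ZIFL1 -0.08 ± 0.27 and for ZIFL2 -0.24 ± 0.31, none past the threshold (edgeR, adjusted p = 1.00 for each). The spray groups overlapped for all 3 genes. A two-sided exact permutation test of log2 CPM gave p = 0.7 for ZIF1, 0.8 for ZIFL1 and 0.4 for ZIFL2, where 3 against 3 allow no p below 0.1. The Col-0 estradiol libraries also stand in the contrasts treated as used for the choice, so p-values of the members here are not independent of it. Across all 19666 genes edgeR called 0 (0.0%), with 310 at an unadjusted p under 0.05, and DESeq2 called 0. For ZIFL1 the sign was not stable, being 0.11 without replicate 3 of Col-0 with estradiol and 0.02 without replicate 2 of Col-0 with water.

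Between the lines, the largest fold change of the members was that of ZIFL1. N2102363 over N2102362 gave a log2 fold change of -1.25 ± 0.24 (SE) for ZIFL1, -0.48 ± 0.19 for ZIF1 and -0.26 ± 0.27 for ZIFL2. None was called by edgeR without the replicate block (adjusted p = 0.875, 1.00 and 1.00), where 0.00508% of genes were called. Libraries of the lines with the same number deviated together in replicates 1, 2 and 4. In replicate 3 a library with another number was as close. With the replicate number as a block, ZIFL1 was called lower (log2 fold change -1.22 ± 0.11, edgeR adjusted p = 0.00298), beside 0.0102% of genes called. That block was shared by all 14 libraries, including groups whose numbers were not taken as pairs. ZIF1 and ZIFL2 were not called with it (edgeR adjusted p = 0.712 and 0.790). DESeq2 without the block also called ZIFL1 (-1.24 ± 0.24, adjusted p = 0.00324, beside 0.0153% of genes). The libraries of N2102363 also stand in the contrast through which ZIFL1 was known, so the p-values between the lines, paired ones included, are not independent of the choice.

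Pair by pair, ZIFL1 was lower in N2102363 in 4 of 4 replicate numbers, with log2 differences of -1.09, -1.50, -1.35 and -0.88. ZIF1 was lower in 4 of 4, with -0.59, -0.02, -0.80 and -0.55, the pair of replicate 2 being almost level. ZIFL2 was lower in 3 of 4, with -0.12, -0.62, -0.29 and 0.40. An exact paired permutation test, two-sided, gave p = 0.125 for ZIFL1 and for ZIF1, the smallest that 4 pairs allow, and p = 0.5 for ZIFL2. All libraries of N2102363 lay below all of N2102362 for 2 of 3 members, ZIF1 and ZIFL1, against 1.01% of all genes, and 8.74% of genes were lower in every pair. The libraries of N2102363 entered the contrast through which ZIFL1 was known, so these counts and p-values are a description and no test of the members.

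**Figure D3:**
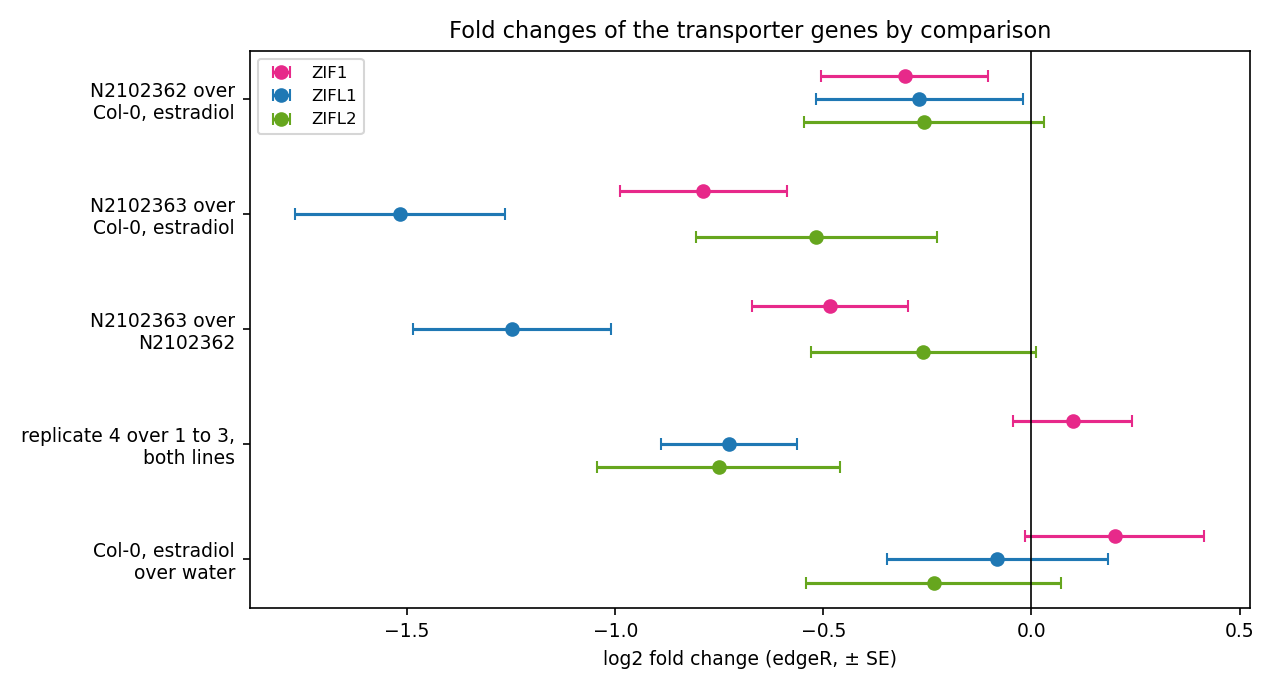
Log2 fold changes ± SE of ZIF1, ZIFL1 and ZIFL2 in 5 comparisons, from edgeR without a replicate block. ZIFL1 lies farthest from 0 in N2102363 over Col-0 (-1.52) and N2102363 over N2102362 (-1.25), and all 3 genes lie within 1 SE of 0 in Col-0 sprayed with estradiol over water.

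Within the lines, ZIFL1 was the member called lower in replicate 4 than in replicates 1 to 3. This comparison was made inside each line, and whether it entered the choice of the genes is not known. In a fit of the 8 line libraries with a term for the line, the log2 fold change of replicate 4 was -0.73 ± 0.16 (SE) for ZIFL1 (edgeR, adjusted p = 0.0255), -0.75 ± 0.29 for ZIFL2 (adjusted p = 0.123) and 0.10 ± 0.14 for ZIF1 (adjusted p = 0.680). Thus 1 of 3 members was called lower, against 6.34% of 19261 genes called lower and 12.8% called in either direction. Replicate 4 was the lowest library of each line for ZIFL1 and ZIFL2, as for 20.8% of genes. The ZIFL1 call was lost without replicate 4 of N2102362 (-0.50, edgeR adjusted p = 0.487) or of N2102363 (-0.94, 0.0668), and without replicate 1 or 2 of N2102363 (-0.71 each, 0.0514 and 0.0572). Beside it, 3 of 4 leaf markers were called higher in replicate 4, with sums of 32477 and 37097 CPM there, against 17736 to 24640 CPM in replicates 1 to 3. PYK10 and the floral gene AG were also called higher in replicate 4, with log2 fold changes of 0.82 and 1.10, and 0 of 5 guard cell markers were called. These marker calls were also lost without replicate 4 of N2102362. Their part in the ZIFL1 value was not tested.

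WRKY75 also differed between libraries of a line, so its level is given beside those of the transporters. Replicate 4 of N2102362 had 82.1 CPM of WRKY75 and 21.4 CPM of ZIFL1, against 28.2 to 30.7 CPM of WRKY75 and 36.4 to 49.4 CPM of ZIFL1 in replicates 1 to 3. In N2102363, replicate 4 had 167 CPM of WRKY75 and 11.6 CPM of ZIFL1, against 76.8 to 146 CPM of WRKY75 and 14.3 to 17.5 CPM of ZIFL1 in replicates 1 to 3. For ZIF1 replicate 4 of N2102362 had 48.6 CPM, inside the 37.9 to 49.7 CPM of the other replicates. The log2 fold change of WRKY75 in replicate 4 was 1.05 ± 0.25 (SE, edgeR adjusted p = 0.0348). That call was lost without replicate 4 of N2102362 (0.57, adjusted p = 0.540), without any other replicate of that line (adjusted p = 0.0632 to 0.0741) and without replicate 4 of N2102363 (1.48, adjusted p = 0.0507). The line libraries fall into clusters by line and replicate, and a relation of WRKY75 and ZIFL1 levels was not tested across them.

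**Figure D4:**
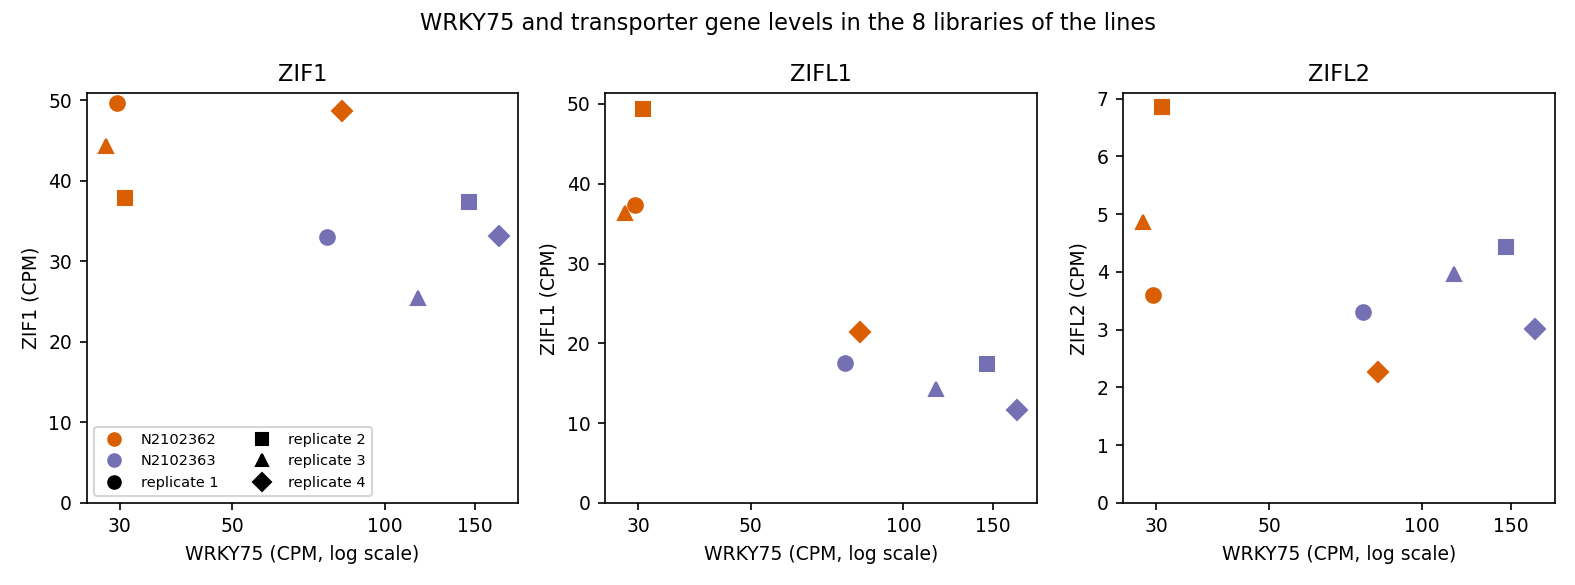
CPM of ZIF1, ZIFL1 and ZIFL2 against CPM of WRKY75 (log axis) in the 8 libraries of the lines, coloured by line with 1 symbol per replicate number. For ZIFL1, replicate 4 of N2102362 (82.1 CPM of WRKY75, 21.4 CPM of ZIFL1) lies apart from the other libraries of its line.

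The pathways in which the family takes part were described by 6 lists with 81 genes, of which 59 were tested. Of these only IRT3, a zinc and iron uptake transporter of the ZIP family, passed the test in either line against Col-0 with estradiol. Its log2 fold change was -4.40 ± 0.46 (SE, edgeR adjusted p = 0.00145) in N2102362, where 0.0305% of all genes were called. In N2102363 it was -3.89 ± 0.44 (edgeR adjusted p = 0.00328), where 0.0254% were called. The lists were chosen with earlier results of these data known, so these p-values are not independent of the choice. Of 11 tested genes for zinc uptake and its regulators, 1 was called lower and 0 higher in the mean of the lines, with a median log2 fold change of -0.05, against -0.00 over all genes. ZIP7 stood at 0.55 ± 0.35 (SE), bZIP24 at 0.28 ± 0.18, ZIP4 at -0.18 ± 0.16, and bZIP23, a regulator of the zinc deficiency response, at 0.16 ± 0.13.

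Nicotianamine, the substrate of ZIF1, is made by nicotianamine synthases, and YSL proteins carry its metal complexes. In the mean of the lines 0 of 9 tested genes of this list passed the test, 7 of 9 had negative values and the median was -0.19. NAS1 stood at -0.38 ± 0.38 (SE), NAS3 at -0.25 ± 0.33, YSL3 at -0.22 ± 0.21 and YSL4 at 0.25 ± 0.12. Of 14 tested genes for metal efflux and vacuolar transport 0 were called (median -0.06), with PCR1 at 0.62 ± 0.67, NRAMP4, which exports iron from the vacuole, at -0.27 ± 0.08, CAX2 at -0.25 ± 0.11 and PCR2 at -0.22 ± 0.32. Of 9 tested genes of the iron deficiency response and storage 0 were called (median -0.11), with the root regulator FIT at 0.62 ± 0.28, MYB10 at -0.34 ± 0.20, FRO2 at -0.25 ± 0.23 and the ferritin gene FER1 at -0.19 ± 0.20.

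For the other known roles of the family, 0 of 9 tested polar auxin transport genes passed the test in the mean of the lines (median -0.05), and 0 of 7 tested potassium transport genes (median 0.09). The auxin transporter ABCB4 stood at -0.33 ± 0.18 (SE), LAX3 at 0.21 ± 0.10, PIN3 at 0.18 ± 0.11 and AUX1 at 0.15 ± 0.16. Of the potassium channels, AKT1 stood at -0.39 ± 0.26, KAT2 at 0.32 ± 0.18, AKT2 at 0.28 ± 0.23 and KAT1 at 0.13 ± 0.12. The members' own median was -0.55, with 3 of 3 negative, against 50.9% negative over all genes. That the members lie low follows in part from how they were chosen.

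**Figure D5:**
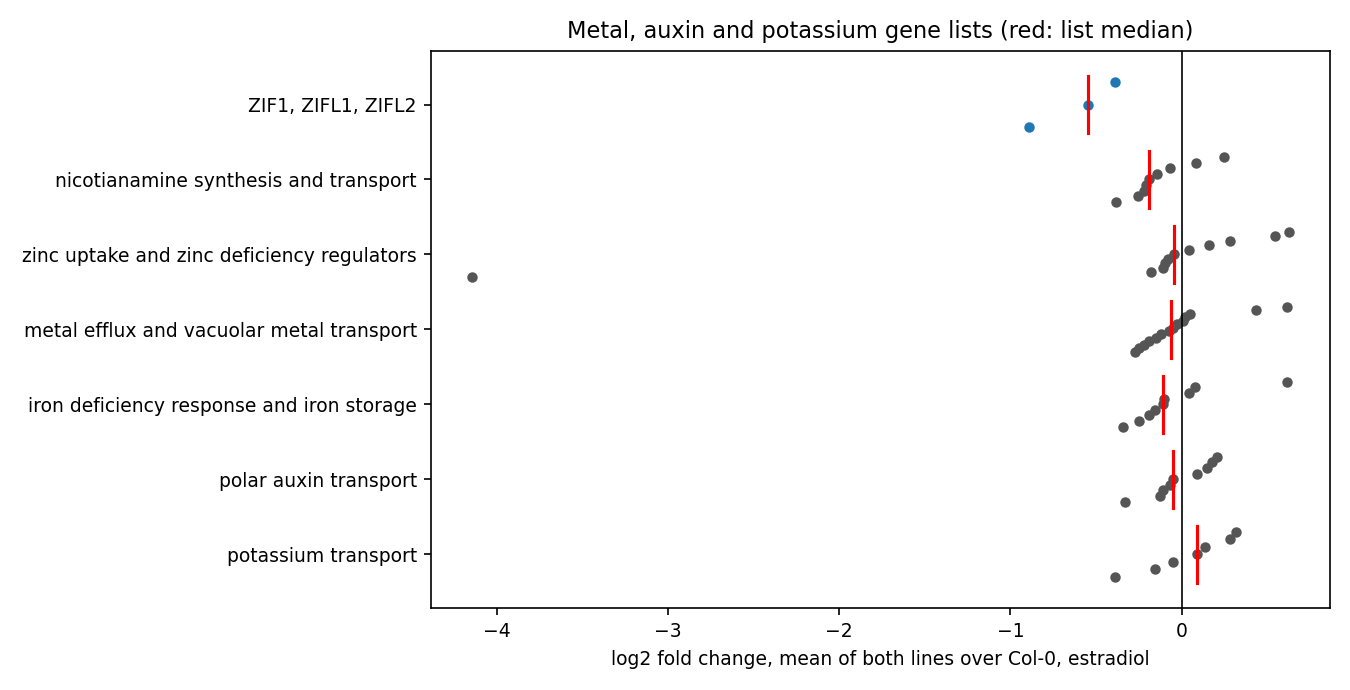
Log2 fold changes in the mean of both lines over Col-0 with estradiol for the members and 6 lists, 1 point per tested gene and a red line at each median. IRT3 at -4.14 stands apart, and the other points of the lists lie within 1 of 0.

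In replicate 4 of the lines, 9 of 58 list genes tested there were called, 2 higher and 7 lower, a share near the 12.8% of all genes called in either direction. Without replicate 4 of N2102362, 0 of 59 were called, and 0 genes in all by edgeR (2007 at an unadjusted p under 0.05), and without replicate 4 of N2102363, 1 of 59. With all 8 libraries YSL1 and YSL3 were called lower in it (log2 fold changes -0.52 ± 0.10 and -0.63 ± 0.15, SE; edgeR adjusted p = 0.0161 and 0.0285) and YSL2 higher (1.07 ± 0.18, adjusted p = 0.0112). PCR1 and PCR2, plasma membrane proteins for cadmium and zinc tolerance, were called lower (-2.32 ± 0.62 and -1.25 ± 0.26), as were ZIP5 (-0.92 ± 0.15), the ferric reductase gene FRO3 (-0.34 ± 0.08) and AKT1 (-0.82 ± 0.18). AKT2 was called higher (0.67 ± 0.17).

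The genes whose pattern was most alike to each member were named by the highest Pearson correlation of log2 CPM over the 14 libraries, among 18109 other genes with a mean of at least 1 CPM. For ZIFL1 they were AT4G08790 (r = 0.97), AT5G25040 (0.93), SETH6 (0.92), AT2G41090 (0.92) and AT1G73630 (0.92). For ZIFL2 they were AT2G01400 (0.96), AT4G16960 (0.96), AT1G79710 (0.95), CCR1 (0.95) and TMN7 (0.95), and for ZIF1 AT1G31550 (0.86), AT4G30570 (0.85), AT1G67300 (0.82), AT4G33640 (0.82) and AT5G59410 (0.81). The members were less alike to each other, with r = 0.75 for ZIFL1 and ZIFL2, 0.58 for ZIF1 and ZIFL1, and 0.22 for ZIF1 and ZIFL2. After the group means were removed, the values were 0.80, -0.26 and -0.29. Libraries of a group share treatment and genotype, so these values describe the 14 libraries and carry no test.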

How the data were processed

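The authors deposited whole-number counts of reads per gene, 1 file per library, with no normalization in the files. Per the submitters' processing notes, FastQC, TopHat2, SAMtools and HTSeq were used with TAIR10; versions and counting mode are not given in the sources used here. Libraries were made with a TruSeq kit that does not mark strand, per the labels' protocols.

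All 14 libraries entered a single fit in edgeR 4.0.16 (R 4.3.3) with group as the factor. The filterByExpr filter at a minimum count of 10 kept 19666 genes, libraries were scaled by TMM, and the robust quasi-likelihood test was adjusted by Benjamini-Hochberg over all of them, with calls at 0.05. The SE given for edgeR is the absolute log2 fold change divided by the square root of the F statistic of that test. DESeq2 1.42.0 was an alternative, with its own SE. CPM scale each count to the TMM-adjusted library total, 1 count being 0.0440 to 0.0528 CPM. Within groups, a chi-square test of counts gave at least 14.1 per degree of freedom for any pair of replicates, so none was counted as a copy. Their p-values measure the spread between these pools.

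Correlations of deviations from group means between same-numbered libraries were 0.226 to 0.718 for the lines and 0.101 to 0.165 for N2102363 with Col-0 estradiol, so numbers were taken as pairs there. They were not for N2102362 with Col-0 estradiol (-0.127 in replicate 3) or between the Col-0 sprays (0.0661 in replicate 3). Yet replicate 2 of the former reached 0.628 and replicate 1 of the latter 0.505, above every value for N2102363 with Col-0 estradiol. The pairing of N2102363 with Col-0 estradiol is therefore weakly founded. The fit with the replicate block held all 14 libraries and so shared the block with these groups too. The pairing comes from the data, not the labels. In replicate 3 the same number gave 0.226 for the lines and 0.101 for N2102363 with Col-0 estradiol. A library with another number there reached 0.227 and 0.132.

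Start positions in the files count from 0 and are given from 1. Of 32835 genes matched by locus tag, 99.99% overlapped on the same strand in RefSeq TAIR10.1, whose genome gave all sequences. Coding sequences were aligned with Biopython 1.88 and compared with all transcripts by blastn 2.17.0.

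The members and lists were chosen with earlier results of these data known. The text names the members, WRKY75, list genes that were called, up to 4 more a list with the largest values in the mean of the lines among genes averaging at least 1 CPM, markers, and the 5 genes most alike to each member. The flanking genes were added for their position.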

Additional observations from a re-analysis of the deposited data

How the results depend on the processing

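Of 255 recomputed values of the members, 245 kept their direction and side of the threshold, or stayed within 1 SD between replicates where no test was made. For ZIFL1 in N2102363 over N2102362, DESeq2 (-1.24, adjusted p = 0.00324) and the replicate block (-1.22, edgeR adjusted p = 0.00298) passed the threshold that the fit without a block missed. Neither p-value is independent of the choice of the genes. The block changed no other call of a member that was tested. With Col-0 water as the reference, ZIFL2 in N2102363 was -0.75 in place of -0.52. Leaving out 1 library at a time gave -0.21 to 0.11 for ZIFL1 in Col-0 with estradiol over water, -0.48 to 0.04 for ZIFL2 in N2102363 over N2102362 (0.040 without replicate 2 of N2102362), and -0.94 to -0.50 for ZIFL1 in replicate 4 over replicates 1 to 3. The cause was not tested.

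Counts of called genes moved more. Over Col-0 with estradiol, a fit of the compared groups alone called 2 genes in N2102362 and 2 in N2102363. DESeq2 called 37 in N2102363 and 27 in the mean of the lines, both Col-0 sprays as the reference gave 55 and 127, and Col-0 water gave 27 and 11. Between the lines DESeq2 called 4 and the replicate block 2. Leaving out 1 library gave 5 to 8 genes in N2102363, 1 to 2 between the lines and 0 to 3847 for replicate 4. ZIFL2, at 44 to 152 counts per library, was measured least precisely.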
